A study of Mus musculus with 8 samples.

Results

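Genes of the non-collagen extracellular matrix and the basement membrane were examined in murine oviductal epithelial (MOE) cells, a mouse cell line from the oviduct, the counterpart of the fallopian tube in women. The members were 39 gene symbols chosen by name: fibronectin and matricellular glycoproteins, laminin chains, nidogens, matrix and cell surface proteoglycans, and elastic fibre proteins. Collagens and the CCN family were left out. All 39 were among the 23337 genes of the files, and 31 passed the filter on low values, which asked for 10 or more normalized counts in 4 or more libraries. In all, 11820 genes passed it and were tested.

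RNA was sequenced from 4 libraries of cells on 2D collagen and 4 libraries of cells on 3D collagen gels. All were of FVB strain background and had spent 6 h on collagen in MOE medium lacking EGF. The comparison asks which transcripts differ between flat and gel collagen, as part of work on how cells from the fallopian tube come to grow on the ovary. The groups are libraries of 1 cell line. Whether each library came from its own culture is not given in the labels, and the p-values reflect only the variation among these libraries, possibly technical. Depth ranged from 15692699 to 25862036 reads per library. In bulk RNA, fewer cells that express a gene and less RNA per cell cannot be told apart.

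The labelled cell type was checked against 10 markers of oviductal epithelium, of which 8 had a mean level of at least 1 TPM (transcripts scaled to exonic length and to a common total per library). Keratin 8 (Krt8, 1710 to 3340 TPM), keratin 18 (Krt18, 5660 to 8290 TPM) and the Mullerian transcription factor Pax8 (242 to 326 TPM) were abundant in every library. The epithelial adhesion gene Epcam (at most 1.90 TPM) and the secreted oviductal glycoprotein Ovgp1 (at most 1.26 TPM) had means under 1 TPM. E-cadherin (Cdh1, at most 3.75 TPM) was among the 8 but was also low, with a mean of 2.35 TPM.

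The extracellular matrix of epithelia has a basement membrane, a thin sheet in which laminin trimers and type IV collagen form networks that nidogens and the heparan sulfate proteoglycan perlecan tie together. Laminins are built of 1 alpha, 1 beta and 1 gamma chain, and cells hold them through integrins and dystroglycan. Beneath lies interstitial matrix, where fibronectin and microfibrils carry adhesion sites and growth factors, and matricellular proteins such as thrombospondins, tenascin and osteopontin modify how cells attach.

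Levels per exonic length spread widely among the members. A mean of at least 10 TPM was reached by 23 members, while 13 were under 1 TPM. Osteopontin (Spp1, a secreted phosphoprotein with an integrin-binding site) was the most abundant at 3600 TPM. Fibronectin (Fn1) followed at 1589 TPM and Sparc, a collagen-binding matricellular protein, at 1253 TPM. Spp1 exceeded Fn1 in 5 of 8 libraries and Fn1 exceeded Sparc in 5 of 8, so this order does not hold in every library, whereas Sparc exceeded the next gene, Ecm1 (582 TPM), in 8 of 8. Together Spp1, Fn1 and Sparc made up 46.4% to 77.7% of the members' summed TPM in a library. The laminin chains with appreciable levels were Lama5 (227 TPM), Lamb1 (124 TPM), Lamb2 (98.4 TPM), Lamb3 (91.8 TPM) and Lamc1 (77.7 TPM). Lama5 joins Lamb1 or Lamb2 and Lamc1 in the alpha-5 laminins, and Lamb3 is the beta chain of laminin-332. The alpha chain of laminin-332, Lama3, was at 0.504 TPM.

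**Figure D1:**
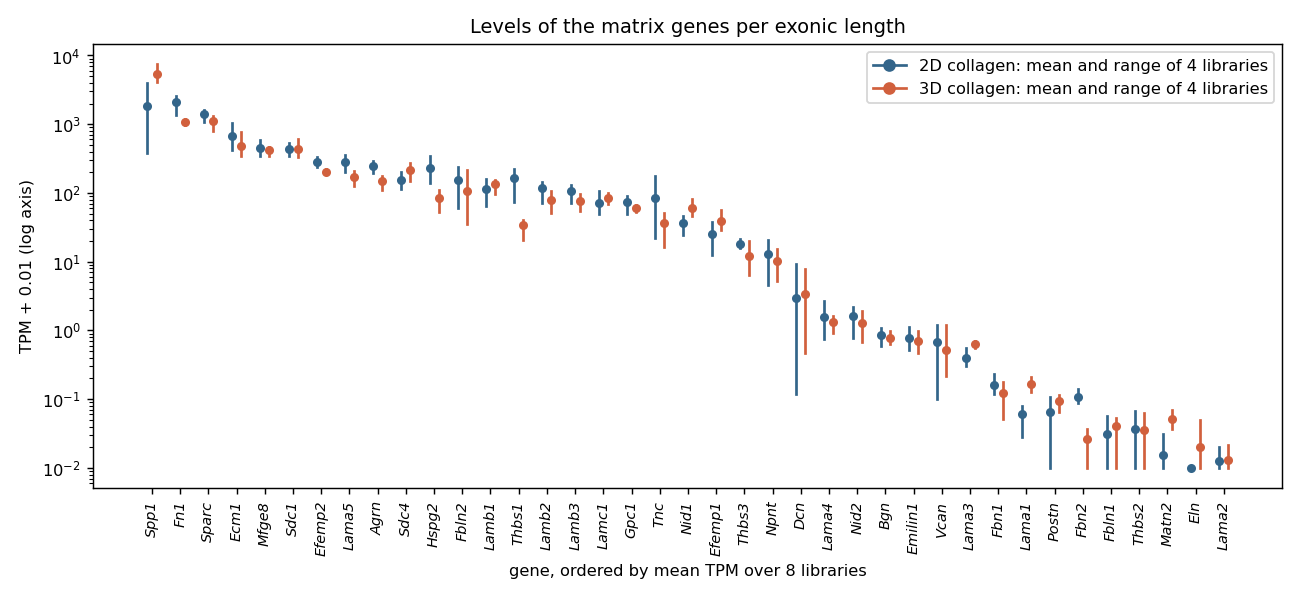
Level of each of the 39 genes in TPM + 0.01 on a log axis, ordered by the mean over 8 libraries; points are the means and lines the ranges of the 4 libraries of each group. Spp1, Fn1 and Sparc have means of 3600, 1589 and 1253 TPM, and 13 genes lie under 1 TPM.

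On 3D collagen 2 of the 31 tested members fell, thrombospondin 1 (Thbs1) and fibronectin (Fn1), and none rose. Perlecan (Hspg2), agrin (Agrn), laminin alpha-5 (Lama5) and the fibulin Efemp2 were lower in every 3D library than in any 2D library but did not pass the adjusted threshold. Nidogen 1 (Nid1) was higher in every 3D library, again without passing. The test was limma on log2(normalized count + 1), with Benjamini-Hochberg adjustment over all genes tested and a threshold of 0.05. Of all genes tested, 3.39% were lower and 2.33% higher at this threshold (5.72% in either direction), so the 2 lower members, 6.45% of those tested, are a small count against that background. At an unadjusted limma p under 0.05, 8 of the 31 tested members were lower and 2 of the 31 higher. Among all genes 12.6% were lower and 11.7% higher. The groups did not overlap, with 3D below 2D, for 6 members (19.4% of those tested, against 10.4% of all genes). They did so with 3D above 2D for 1 member (3.23%, against 8.05%).

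The log2 fold change was below 0 in 23 of the 31 tested members and in 48.5% of all genes. Its median was −0.41 over the members and 0.02 over all genes. Scaled by library size alone, all genes had a median of 0.19, the members had one of −0.23 and 22 members were below 0, Sdc1 having changed sign. Calls over all genes were 401 lower and 275 higher (59.3% lower). They were 318 and 496 (39.1% lower) with library size and 370 and 412 (47.3% lower) with upper-quartile scaling, where the median of all genes was 0.12, and Hspg2 was a further lower member under both.

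Other tests on the same libraries called more members. DESeq2 called 6 lower (Fn1, Thbs1, Lama5, Hspg2, Agrn and Efemp2) and 1 higher (Spp1), where 7.37% of all genes were lower and 5.99% higher. edgeR called 3 lower (Fn1, Thbs1 and Hspg2) and 0 higher, where 3.18% of all genes were lower and 2.72% higher. With the trend over GC content removed, limma called 4 lower (Fn1, Thbs1, Hspg2 and Agrn) and 0 higher, where 5.17% of all genes were lower and 4.11% higher.

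**Figure D2:**
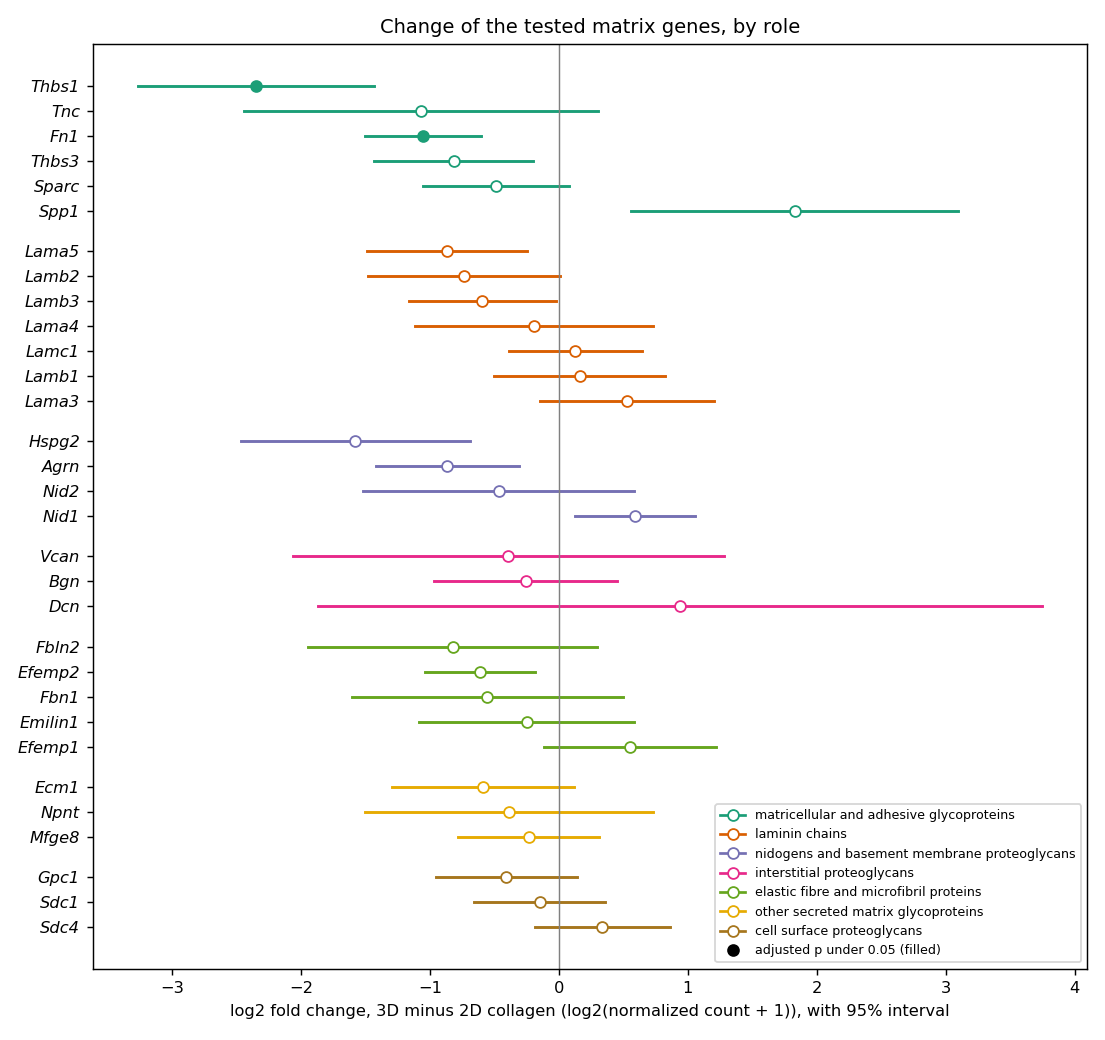
Log2 fold change of the 31 tested genes, 3D minus 2D collagen, with 95% intervals from limma (4 libraries per group), grouped by role; filled points passed the adjusted threshold of 0.05. Thbs1 (−2.35) and Fn1 (−1.05) are the filled points, and the point of Spp1 (1.83) lies farthest to the right.

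Among the adhesive and matricellular glycoproteins, 2 of the 6 tested members fell. Thbs1 (chromosome 2, 118111876 to 118127133, mm10), a large trimeric glycoprotein that activates latent TGF-beta and binds CD47, had 5472, 9558, 7287 and 2650 normalized counts in 2D replicates 1 to 4. In 3D replicates 1 to 4 it had 1495, 1290, 1225 and 629. Every 3D library was thus under the lowest 2D library, and replicate 4 was the lowest of its group on each substrate. The group means were 6242 ± 2921 and 1160 ± 372 (SD, n = 4 per group), a log2 fold change of −2.35 (SE 0.41, 95% interval −3.26 to −1.44, limma adjusted p = 0.0157), or 5.10-fold lower. Without 3D replicate 3 the limma adjusted p was 0.0543.

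Fibronectin (Fn1, chromosome 1, 71585520 to 71653200), the main adhesive glycoprotein of provisional matrix and a ligand of alpha-5 beta-1 integrin, had 165160, 114117, 173399 and 132224 normalized counts in the 2D libraries. The 3D libraries had 82858, 76904, 62585 and 58541. The groups were well apart, the lowest 2D library lying above the highest 3D library. Fn1 fell from 146225 ± 27832 to 70222 ± 11534 (SD, n = 4 per group), a log2 fold change of −1.05 (SE 0.20, 95% interval −1.50 to −0.60, limma adjusted p = 0.0205). The call was lost without 2D replicate 3 (limma adjusted p = 0.0525), 3D replicate 2 (0.0607) or 3D replicate 3 (0.0844).

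Osteopontin (Spp1, chromosome 5, 104435118 to 104441050) had the opposite direction and a wide spread. Its normalized counts were 36159, 4478, 19279 and 10175 in the 2D libraries, and 53819, 40248, 67751 and 34325 in the 3D libraries. The highest 2D library, replicate 1, lay above the lowest 3D library, replicate 4, so the groups overlapped. The log2 fold change was 1.83 (SE 0.56, 95% interval 0.56 to 3.09) and did not pass (limma adjusted p = 0.0893). It passed without 2D replicate 1 (log2 fold change 2.31, limma adjusted p = 0.0367) and in DESeq2 on the recovered reads (adjusted p = 0.0337), and edgeR gave an adjusted p of 0.124. Within each library, the TPM ratio of Spp1 to Fn1 was 1.55, 0.278, 0.788 and 0.546 on 2D collagen and 4.61, 3.71, 7.68 and 4.16 on 3D collagen. Spp1 was thus under Fn1 in 3 of the 2D libraries, above it in 2D replicate 1, and at least 3.71 times Fn1 in each 3D library. This ratio was chosen after its values were seen, and 53.6% of all genes had a ratio to Fn1 that was higher in every 3D library.

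Sparc had 29340, 41625, 35567 and 23699 normalized counts on 2D collagen and 30688, 24329, 23328 and 15217 on 3D collagen. These groups overlapped (log2 fold change −0.49, 95% interval −1.06 to 0.08, limma adjusted p = 0.272). Tenascin C (Tnc), an anti-adhesive hexameric glycoprotein, ranged from 990 to 7711 on 2D and from 641 to 2375 on 3D collagen, so a log2 fold change of −1.07 had a 95% interval from −2.44 to 0.30. For thrombospondin 3 (Thbs3) it was −0.82 (limma adjusted p = 0.113), past the threshold when 3D replicate 4 was left out. Thbs2 and periostin (Postn), the latter a fibroblast matrix protein, had at most 2.39 and 5.97 normalized counts in any library.

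**Figure D3:**
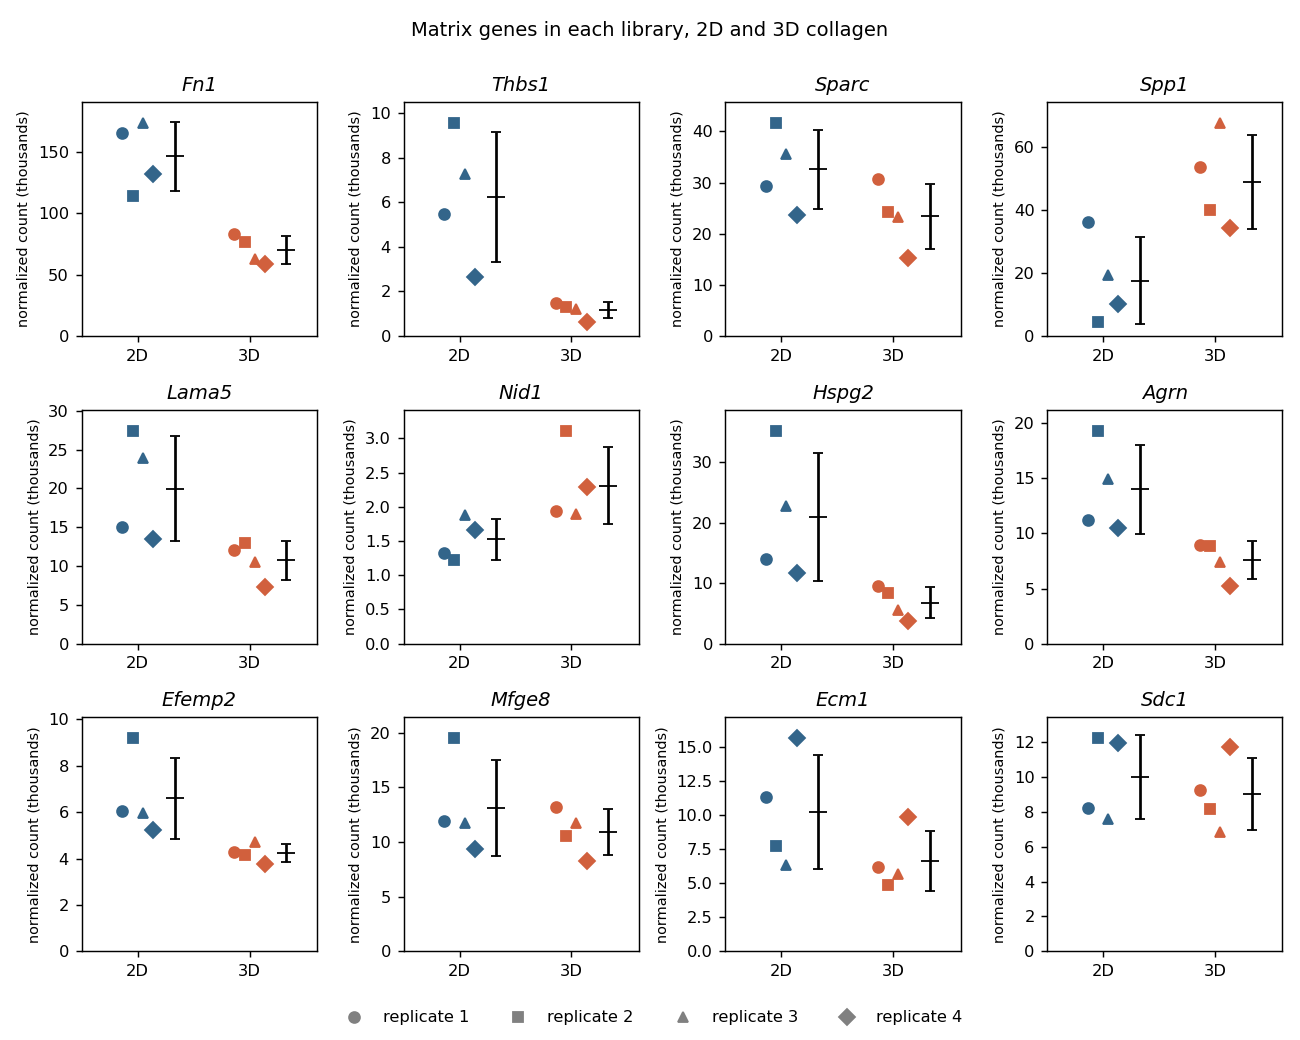
Normalized counts of 12 matrix genes, scaled as each axis states, in each library on 2D and 3D collagen; symbols mark the replicate number and black bars the mean ± SD of 4 libraries. Fn1, Thbs1, Lama5, Hspg2, Agrn and Efemp2 are lower and Nid1 higher in every 3D library, while the groups overlap for Spp1, Sparc, Mfge8, Ecm1 and Sdc1.

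No laminin chain passed the threshold, and 4 of the 7 tested chains had log2 fold changes below 0 (median −0.19). Laminin alpha-5 (Lama5, chromosome 2, 180176373 to 180225859), the broad epithelial alpha chain, had 14968, 27420, 23970 and 13535 normalized counts on 2D collagen. On 3D collagen it had 12037, 12970, 10539 and 7298, each under every 2D value, though 2D replicate 4 and 3D replicate 2 were close. The log2 fold change was −0.87 (SE 0.28, 95% interval −1.49 to −0.25, limma adjusted p = 0.0969), and DESeq2 gave an adjusted p of 0.0226. Lama5 did not pass in edgeR (adjusted p = 0.0919) or in limma with the GC trend removed (−0.64, adjusted p = 0.0757). Of its partners, Lamb1 had a log2 fold change of 0.16 (95% interval −0.50 to 0.83) and Lamc1 of 0.13 (−0.39 to 0.65). These intervals are wide enough to hold a change in either direction. Lamb2, the other beta chain of alpha-5 laminins, had −0.74 (−1.48 to 0.01, limma adjusted p = 0.210), and Lamb3 had −0.59 (limma adjusted p = 0.190).

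Ratios of chains within a library do not depend on the scaling between libraries. The TPM ratio of Lama5 to Lamc1 was 3.22, 6.71, 3.36 and 3.58 on 2D collagen and 2.04, 2.06, 2.14 and 1.83 on 3D collagen. It was lower in every 3D library, and the 3D libraries lay close together (2.02 ± 0.13, against 4.22 ± 1.67 on 2D; SD, n = 4 per group). Among all other tested genes, 4.8% had a ratio to Lamc1 (of normalized counts + 1) that was lower in every 3D library. The ratio of Lamb2 to Lamb1 was 1.02, 1.32, 0.879 and 1.09 on 2D collagen and 0.783, 0.485, 0.529 and 0.531 on 3D collagen, again without overlap, as was the case for 4.45% of all genes against Lamb1. These ratios were chosen after the values were seen and are given without a test.

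Other laminin alpha chains were scarce. Lama4, found in vessel and mesenchymal basement membranes, was at 1.45 TPM, and Lama3 had 19.6 to 34.8 normalized counts on 2D and 29.3 to 45.3 on 3D collagen (log2 fold change 0.53, limma adjusted p = 0.315). Lama1, the embryonic alpha chain, stayed under the filter with 0.974 to 3.95 normalized counts on 2D and 6.79 to 10.5 on 3D collagen, and Lama2, the muscle alpha chain, had at most 1.19.

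**Figure D4:**
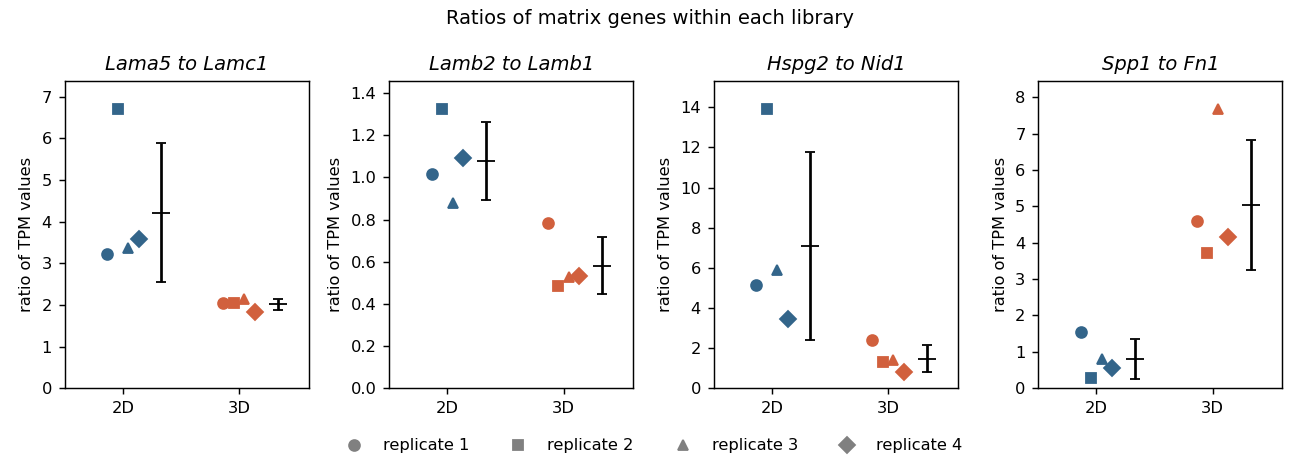
TPM ratios within each library for 4 pairs of matrix genes on 2D and 3D collagen; symbols mark the replicate number and black bars the mean ± SD of 4 libraries. The ratios of Lama5 to Lamc1, Lamb2 to Lamb1 and Hspg2 to Nid1 are lower, and that of Spp1 to Fn1 higher, in every 3D library. The 4 ratios were chosen after the values were seen.

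Of the nidogens and basement membrane proteoglycans, perlecan and agrin were lower and nidogen 1 higher in every 3D library. None of the 4 passed the threshold. Perlecan (Hspg2, chromosome 4, 137468769 to 137570630), the large heparan sulfate proteoglycan of basement membranes, had 14053, 35143, 22794 and 11691 normalized counts on 2D and 9508, 8371, 5476 and 3800 on 3D collagen. The 2D libraries varied widely among themselves, and the lowest of them was still above the highest 3D library. The log2 fold change was −1.58 (SE 0.39, 95% interval −2.47 to −0.69) with a limma adjusted p of 0.0508, at the edge of the threshold. edgeR gave an adjusted p of 0.0453, DESeq2 one of 0.00116, and limma with the GC trend removed one of 0.0244 (log2 fold change −1.36). Perlecan was highest in 2D replicate 2, the library with the highest summed level of 10 intestine genes (66.8 TPM, against 1.24 to 34.8 TPM in the others). Without that library its log2 fold change was −1.28 (limma adjusted p = 0.0692). Thbs1, Lama5, Agrn and Efemp2 were highest in the same library. Without it they had −2.10, −0.69, −0.70 and −0.44 (limma adjusted p = 0.0233, 0.164, 0.112 and 0.104). The part of the intestine genes' source in these results was not tested.

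Agrin (Agrn, chromosome 4, 156165290 to 156197488), a proteoglycan that binds laminin and dystroglycan, had 11220, 19319, 14964 and 10468 normalized counts on 2D and 8944, 8857, 7399 and 5256 on 3D collagen. As for perlecan, 2D replicate 2 was highest and 3D replicate 4 lowest. Among the 31 tested, 2D replicate 2 was the highest of its group for 12, and 3D replicate 4 the lowest of its group for 19. Other libraries were as extreme, 3D replicate 1 being highest for 14 and 2D replicate 4 lowest for 19. The shares over all genes were not counted for single libraries. The log2 fold change of agrin was −0.87 (95% interval −1.42 to −0.31, limma adjusted p = 0.0712). Agrin passed with the GC trend removed (−0.66, limma adjusted p = 0.0368) and in DESeq2 (adjusted p = 0.0134), but not in edgeR (adjusted p = 0.0726). Nidogen 1 (Nid1, chromosome 13, 13437551 to 13512269), the linker between laminin and type IV collagen, had 1327, 1226, 1885 and 1656 normalized counts on 2D and 1939, 3112, 1896 and 2287 on 3D collagen. The gap between the groups was small, 1885 in 2D replicate 3 against 1896 in 3D replicate 3. The log2 fold change was 0.59 (SE 0.21, 95% interval 0.13 to 1.05, limma adjusted p = 0.123).

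Perlecan and nidogen 1 thus differed in direction, and their TPM ratio was 5.14, 13.9, 5.87 and 3.43 on 2D collagen and 2.38, 1.31, 1.40 and 0.806 on 3D collagen. It was lower in each 3D library, as it had to be, since perlecan was lower and nidogen 1 higher in every 3D library. The ratio was chosen after the values were seen and adds nothing to the separate results. Because Nid1 itself was higher, 24.6% of all genes had a ratio to Nid1 that was lower in every 3D library. Nidogen 2 (Nid2) was at 1.44 TPM with overlapping groups.

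The 250 bases upstream of the start sites of these 3 genes and of Lama5 are shown. These members were chosen after their values were seen. Hspg2, Agrn and Lama5 were lower and Nid1 higher in every 3D library, and none of the 4 passed the limma threshold. Whether the sequences bear on that difference was not tested. The sequences are RefSeq windows on GRCm38.p6, written 5′ to 3′ on the gene's strand. For Hspg2 and Nid1 the RefSeq start lies inside the gene as the GENCODE coordinates above give it, so the last bases of these windows overlap that gene model. Capitals mark GGGCGG, the GC box, on either strand (CCGCCC), and GGAATG, the core bound by TEAD factors, on either strand (CATTCC). They lie at chr4:137468553-137468802 (plus strand) for Hspg2, chr4:156197489-156197738 (minus strand) for Agrn, chr2:180225860-180226109 (minus strand) for Lama5 and chr13:13437352-13437601 (plus strand) for Nid1.
Hspg2: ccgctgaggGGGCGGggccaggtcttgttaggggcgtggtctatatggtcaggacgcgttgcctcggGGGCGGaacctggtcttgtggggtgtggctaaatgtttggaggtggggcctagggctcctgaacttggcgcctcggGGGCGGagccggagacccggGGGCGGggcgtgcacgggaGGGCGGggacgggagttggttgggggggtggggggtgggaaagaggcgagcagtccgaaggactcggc
Agrn: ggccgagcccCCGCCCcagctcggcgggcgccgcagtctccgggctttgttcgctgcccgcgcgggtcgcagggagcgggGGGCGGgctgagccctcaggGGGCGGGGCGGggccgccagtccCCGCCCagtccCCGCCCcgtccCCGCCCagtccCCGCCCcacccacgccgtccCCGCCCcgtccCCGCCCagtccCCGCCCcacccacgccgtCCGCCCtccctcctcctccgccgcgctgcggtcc
Lama5: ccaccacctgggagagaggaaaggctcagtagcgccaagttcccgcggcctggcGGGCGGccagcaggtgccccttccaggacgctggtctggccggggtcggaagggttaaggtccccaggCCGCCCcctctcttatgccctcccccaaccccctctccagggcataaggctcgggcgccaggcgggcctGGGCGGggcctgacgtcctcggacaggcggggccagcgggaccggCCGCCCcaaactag
Nid1: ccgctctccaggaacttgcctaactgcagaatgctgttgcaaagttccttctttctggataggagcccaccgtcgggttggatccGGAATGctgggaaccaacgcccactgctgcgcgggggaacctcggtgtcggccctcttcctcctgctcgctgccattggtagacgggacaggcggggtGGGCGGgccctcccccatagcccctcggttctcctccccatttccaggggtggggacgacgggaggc
GC content was 70.0% for Hspg2, 83.6% for Agrn, 72.4% for Lama5 and 64.4% for Nid1, where the median over all windows was 52.4%. GC box matches numbered 5, 12, 4 and 1 in that order, overlapping ones counted. The TEAD core matched once in Nid1 and in none of the other 3.

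Windows of 300 bases (250 upstream, 50 downstream of the start) were found for 27 of the 39 members. The GC box, a motif added after the sequences were seen, was in 24 of their 36 windows and in 35.7% of all 32851 windows. The TEAD core was in 2 of the 36 (Lamb3 and Nid1), against 14.7% of all. The AP-1 motif TGANTCA was in 2 (Ecm1 and Efemp1), against 7.81%, the cyclic AMP element TGACGTCA in 0, against 1.79%, and the CArG box bound by SRF in 1 (Lama2), against 1.63%. Both strands were searched, and a match describes the letters of these windows only.

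None of the 5 tested elastic fibre and microfibril genes among the 39 members passed the threshold, and 4 of them had log2 fold changes below 0. Efemp2 (chromosome 19, 5473954 to 5482517), a fibulin needed for elastic fibre assembly, had 6044, 9181, 5951 and 5221 normalized counts on 2D and 4282, 4172, 4703 and 3759 on 3D collagen. The groups were apart, and the 3D libraries were tightly placed (4229 ± 388, against 6599 ± 1760; SD, n = 4 per group). The log2 fold change was −0.61 (95% interval −1.04 to −0.19, limma adjusted p = 0.0903), and DESeq2 gave an adjusted p of 0.0283. Efemp2 did not pass in edgeR (adjusted p = 0.090) or in limma with the GC trend removed (−0.48, adjusted p = 0.0591). Fibulin 2 (Fbln2), which bridges basement membrane and microfibrils, ranged from 2712 to 8764 on 2D and from 1366 to 7020 on 3D collagen (log2 fold change −0.82, limma adjusted p = 0.349). Efemp1, a related fibulin, was higher by 0.55 on the log2 scale (limma adjusted p = 0.293), with overlapping groups. Fibrillin 1 (Fbn1) and Emilin1 were low, at 0.132 and 0.723 TPM, and Gm9913, on the opposite strand, covers 20.1% of the exon bases of Fbn1. Fibrillin 2 (Fbn2), under the filter, had 6, 8, 13 and 5 reads on 2D and 0, 1, 2 and 2 reads on 3D collagen, and it was called lower when low genes were kept in the limma test (340 of 16698 genes were then lower). Elastin (Eln) had reads in 1 library only, and fibulin 1 (Fbln1) had at most 1.23 normalized counts.

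The interstitial proteoglycans were scarce, and their groups overlapped. Versican (Vcan), a large hyaluronan-binding proteoglycan, had 9.56 to 100.5 normalized counts on 2D and 18.1 to 88.7 on 3D collagen. Decorin (Dcn), a small collagen-binding proteoglycan, had 299, 26.3, 61.7 and 3.68 on 2D and 274, 82.9, 94.2 and 13.7 on 3D collagen. Replicate 1 was its highest and replicate 4 its lowest library on each substrate, and the 95% interval of its log2 fold change ran from −1.87 to 3.75. Biglycan (Bgn) had a log2 fold change of −0.26.

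Other secreted glycoproteins and the cell surface proteoglycans also stayed under the threshold. Ecm1, a secreted glycoprotein that binds perlecan and fibulins, had 11302, 7697, 6311 and 15615 normalized counts on 2D and 6195, 4831, 5695 and 9857 on 3D collagen, with replicate 4 highest on each (log2 fold change −0.59, limma adjusted p = 0.292). Mfge8, a bridging protein with an integrin-binding site, had 11964, 19470, 11747 and 9365 on 2D and 13207, 10517, 11701 and 8246 on 3D collagen. Its groups overlapped widely (log2 fold change −0.23, 95% interval −0.78 to 0.31). Nephronectin (Npnt), a basement membrane ligand of alpha-8 beta-1 integrin, showed a value of −0.38 (limma adjusted p = 0.680), and Matn2 had at most 2.26 normalized counts. Syndecan 1 (Sdc1), the main epithelial syndecan, had 8248, 12223, 7624 and 11988 on 2D and 9258, 8166, 6876 and 11749 on 3D collagen. Its log2 fold change of −0.15 (95% interval −0.66 to 0.36) changed sign with library size scaling (0.025) and with the GC trend removed (0.017). Syndecan 4 (Sdc4), a focal adhesion co-receptor for fibronectin, had 0.34 (−0.19 to 0.86), and glypican 1 (Gpc1), a lipid-anchored proteoglycan, had −0.41 (−0.95 to 0.14), with exons of Ankmy1 over 18.9% of its exonic bases.

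The libraries numbered 4 shared a pattern over these genes. Among the 31 tested members, 16 (51.6%) were lowest in replicate 4 on both substrates, against 23.1% of all genes. They included Thbs1, Tnc, Sparc, Lama5, Lamb1, Lamb2, Lamc1, Hspg2, Agrn and Dcn. Another 5 (16.1%) were highest in replicate 4 on both substrates, namely Thbs3, Vcan, Fbln2, Efemp1 and Ecm1, against 17.8% of all genes. The median deviation of the members from their mean over all libraries (log2) was 0.21, 0.35, 0.35 and −0.18 in 2D replicates 1 to 4 and −0.01, −0.12, −0.15 and −0.50 in 3D replicates 1 to 4. The groups thus overlapped by this measure, since 2D replicate 4 lay under 3 of the 3D libraries. Without both libraries numbered 4, Thbs1 (−2.44, limma adjusted p = 0.00486) and Fn1 (−1.01, limma adjusted p = 0.0491) were called and no other member, where 276 genes in all were lower and 171 higher.

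**Figure D5:**
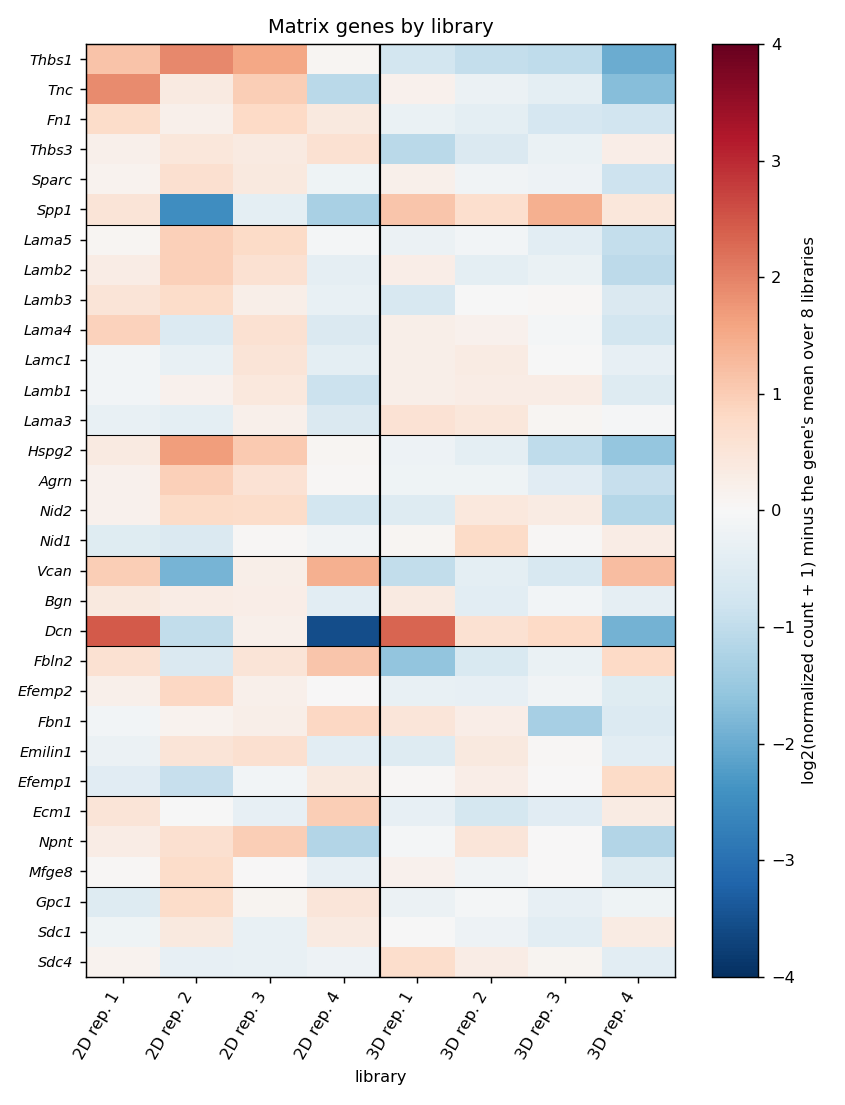
Deviation of each tested gene from its mean over 8 libraries, in log2(normalized count + 1), with lines between the groups and between the roles of the genes. Replicate 4 is the lowest of its group on both substrates for 16 genes, among them Hspg2, Agrn, Tnc and Dcn, and the highest for 5, among them Vcan and Fbln2.

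Related genes outside the members were counted by lists, to be read against the 3.39% of all genes that were lower and the 2.33% that were higher in the same limma fit. Of the other matrix and basement membrane proteins, 10 of 39 were tested, 3 fell and 1 rose. Tinagl1, a secreted basement membrane glycoprotein, had 6254, 7853, 5740 and 6162 normalized counts on 2D and 2444, 2132, 2299 and 1685 on 3D collagen, with little spread within groups (log2 fold change −1.61, SE 0.17, limma adjusted p = 0.00228). The laminin gamma-3 chain Lamc3 fell from 44.4 ± 16.2 to 10.5 ± 2.95 (SD, n = 4 per group; limma adjusted p = 0.0180), Crim1 fell by 0.70 on the log2 scale (limma adjusted p = 0.0456), and the calcium-binding matrix protein Smoc2 rose from 11.4 ± 4.70 to 50.8 ± 20.7 (limma adjusted p = 0.0258). Of 5 tested other elastic fibre and microfibril proteins, which are not among the 39 members, 2 fell, the latent TGF-beta binding proteins Ltbp4 (log2 fold change −0.96, limma adjusted p = 0.0187) and Ltbp3 (−0.93, limma adjusted p = 0.0456). None of 4 other syndecans and glypicans passed.

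The 13 tested receptors for matrix ligands were integrin chains, dystroglycan (Dag1), Bcam and the thrombospondin receptor Cd47. Of these 1 fell, dystroglycan, the receptor of laminin, agrin and perlecan. It had 13559, 14283, 19051 and 9970 normalized counts on 2D and 6772, 6672, 5956 and 4664 on 3D collagen (log2 fold change −1.22, SE 0.22, limma adjusted p = 0.0168). Of 18 tested genes of heparan sulfate synthesis 3 fell and none rose. The sulfotransferases Ndst1 and Hs6st1 had log2 fold changes of −1.30 and −1.17 (limma adjusted p = 0.0129 and 0.0179), and the chain polymerase subunit Ext2 had −0.53 (limma adjusted p = 0.0365). The medians over the lists were −0.40 for other matrix proteins, −0.14 for elastic fibre proteins and −0.25 for syndecans and glypicans. They were −0.40 for receptors and −0.36 for heparan sulfate synthesis and remodelling.

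Markers of other cell types were summed in TPM as a check on the source of matrix transcripts. The 8 fibroblast markers summed to 1.43 to 2.96 on 2D and 1.52 to 2.35 on 3D collagen, with Fap at 0 in every library. The 6 smooth muscle markers summed to 836 to 4413 and 474 to 1652, almost all from Acta2 and Tagln, while Myh11 and Des stayed at or under 0.622. The 4 mesothelial markers summed to 602 to 1173 on 2D and 374 to 576 on 3D collagen, almost all from Msln, with Lrrn4 and Upk1b at or under 0.0945. The 5 endothelial markers summed to 5.18 to 11.4 and 6.37 to 14.9, almost all from Kdr. The 6 immune markers summed to 26.7 to 64.5 and 53.5 to 87.0, mostly Cd68, with Ptprc at most 0.037. The 3 ciliated cell markers with a level summed to 73.5 to 104 and 12.6 to 94.8, mostly Foxj1. Msln was higher in every 2D library (598 to 1170 TPM, against 369 to 574 on 3D collagen). The groups overlapped for Acta2 (641 to 3380 against 360 to 1300) and Tagln (191 to 1020 against 110 to 392). The part of these levels in the matrix results was not tested. The 10 intestine genes summed to 4.05 to 66.8 and 1.24 to 34.8.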

How the data were processed

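Each library's deposited file gives 1 normalized signal value per gene. The submitters' processing notes name HTSeq 0.6.1p1, DESeq2 and mm10. Aligner, annotation, strand setting and filters: not given in the sources used here. In every library 100% of values were whole multiples of the worth of 1 read (tolerance 0.001 reads), and median-of-ratios size factors gave the same divisors, so the authors' values are read counts divided by 1 factor per library, called normalized counts. Dividing by the worth of 1 read recovered the counts.

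The main test was limma 3.58.1 (R 4.3.3) with a trended, robust prior on log2(normalized count + 1), for genes that reached 10 in 4 or more libraries. Fold changes on this scale are understated for low genes. The alternatives were edgeR 4.0.16 and DESeq2 1.42.0 on the recovered reads, other scalings, pseudocounts and filters, a lowess GC correction (span 30%), the replicate block, leaving out libraries, and limma's test against a 1.5-fold change. Of these fits, only the main limma test was tried on simulated counts. TPM used exonic bases from GENCODE M21 (GRCm38), where 22804 of 23337 symbols matched; GC content was available for 11681 tested genes. Without strand information, reads of antisense models cannot be told apart (Fn1 2.50%, Thbs1 3.42%, Thbs3 6.59%, Nid2 8.45% and Efemp2 4.57% of exonic bases overlapped; a same-strand model covers 18.8% of Spp1).

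Values in all libraries are given for members past the threshold and for the 6 highest by TPM. They are also given for members not past it with groups apart and at least a 1.5-fold change. Dcn and Fbn2, with values in all libraries, and Tnc and Fbln2, with ranges, were added after their values were seen. From each related list up to 4 called genes are named. Members and lists were chosen with earlier results of these data known. A planned count of RGD motifs in proteins was not analysed here.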

Additional observations from a re-analysis of the deposited data

Results flagged for a closer look

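Among the 62 groups of 4 libraries examined (31 tested members on each substrate), 2 held a library far from the other 3, and chance gives about 1 in 20 groups. Laminin beta-1 (Lamb1) had 4820 normalized counts in 3D replicate 4, where the other 3D libraries had 8131 to 8370. Versican (Vcan) had 88.7 normalized counts in 3D replicate 4, where the other 3D libraries had 18.1 to 27.9.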

How the results depend on the processing

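Of 676 values of single members under the 22 alternatives, 634 kept their direction and side of the threshold, 28 newly passed it, 6 no longer passed and 8 changed sign, none of which had been called. Over the fits without a library, Dcn ranged from −0.086 to 1.92, Lama4 from −0.42 to 0.082, Lamb1 from −0.092 to 0.36 and Vcan from −1.07 to 0.016; the sign changed without 2D replicate 4 (Dcn, Lamb1, Vcan), 2D replicate 1 (Lama4) or 3D replicate 4 (Lama4, 0.02). Sdc1 was 0.025 with library size scaling and 0.017 with the GC trend removed, with or without the replicate block. The count of lower members, 2, became 6 in DESeq2 (708 higher and 871 lower genes in all), 4 with the GC trend removed (480 and 604) and 0 against a minimum change of 1.5-fold (9 and 37). The count of higher members, 0, became 1 (Spp1) in DESeq2. Leaving out libraries gave 0 to 3 lower members (0 without 3D replicate 3, 1 without 2D replicate 3 or 3D replicate 2) and 0 to 1 higher (Spp1, without 2D replicate 1), with 104 to 370 lower and 44 to 267 higher genes in all from fewer libraries. The members' median log2 fold change lay between −0.49 and −0.23 throughout. The elastic fibre list had 1 lower gene in edgeR instead of 2. The cause of these shifts was not tested.

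Same-numbered libraries did not all deviate together (correlations of −0.17, 0.37, 0.25 and 0.81 for numbers 1 to 4), so the main test did not take the numbers as pairs. Whether libraries of the same number share a batch is not given in the labels, and these correlations do not settle it. With the replicate block, 7 members were lower (Fn1, Thbs1, Thbs3, Tnc, Lama5, Hspg2 and Agrn) and 1 higher, Spp1 (742 and 663 genes in all). With the GC trend removed as well, 8 were lower, Lamb2 and Efemp2 in place of Thbs3, and Spp1 was again the 1 higher (1076 and 993). The correlations were highest with another number for 2D replicates 1 and 2. Depth limits the 8 members under the filter, whose values rest on a few reads per library.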
